A study of Danio rerio with 6 samples.

Results

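Of 10 named genes of the NF-κB pathway and its feedback, 7 could be followed in the 5-dpf larval zebrafish gut: the inhibitor genes nfkbiaa, nfkbiab and nfkbie, the factor genes rela and nfkb2, and the adaptor genes myd88 and traf6. They were chosen by gene symbol, with earlier results of these data known, out of 15419 genes counted. Of those, 11095 had enough counts to be tested, and all 7 were among them. The genes nfkb1, relb and tnfaip3 were not analysed here.

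Bulk mRNA sequencing was performed on dissected guts of wild-type (WT) larvae and of homozygous il26 mutant larvae (il26-/-). The mutation is a CRISPR/Cas9 deletion in il26, which encodes a cytokine related to IL-10. There were 3 libraries per genotype, each made from a pool of 10 to 15 guts. All larvae were untreated and 5 days post-fertilization (dpf). According to the study, the WT line was AB, and larvae of each genotype came from clutchmate parents that were housed in separate tanks, which means that genotype and parental tank cannot be told apart. The mutant libraries are called il26KO, as in their labels.

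NF-κB is a family of transcription factors that switch on immune and survival genes after microbial sensing or cytokine signalling. In resting cells the dimers are held in the cytoplasm by IκB proteins. Receptors of the Toll-like and interleukin-1 families recruit the adaptor Myd88, which leads through Traf6 to the IκB kinase, and the kinase marks IκB for destruction. The factor then enters the nucleus and activates its targets, among which, in mammals, is the gene of its own inhibitor IκBα. In the gut this pathway is a main route by which the epithelium and immune cells respond to the microbiota.

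Total counts ranged from 15693057 in il26KO replicate 2 to 28303340 in il26KO replicate 3. A detection floor of 3 counts corresponded to 0.106 to 0.192 CPM (counts scaled by the normalized library size). These floors cover counting error only. The targeted gene il26 had 0 counts in all 6 libraries, which gave no check of the genotype labels. The intestinal epithelium markers, led by the lipid transport gene apoa4b.1, summed to 15400 to 18300 CPM in WT and 16400 to 18000 CPM in il26KO. Acinar pancreas markers summed to 16100 to 26500 CPM over the 6 libraries and liver markers to 3340 to 8060 CPM, so transcripts of neighbouring organs were present. Markers of neutrophils reached at most 9.67 CPM, of macrophages 7.69 CPM and of lymphoid cells 3.61 CPM in any library, with overlapping genotypes. The lymphoid list was led by tagapa, and 1 macrophage and 1 lymphoid marker had 0 counts throughout. Of the epithelium list, fabp2 had only 45 counts over all 6 libraries and hnf4a 171. The skeletal muscle genes mylpfa and ckma had 2 and 1. Whether annotation or counting set these low counts was not tested.

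The first question was whether expression of these 7 genes differed between genotypes. None of the 7 passed an adjusted p-value of 0.05 in the quasi-likelihood test of edgeR, which 0.108% of all tested genes did. Before adjustment, 2 of the 7 had a p-value below 0.05 in the same test, against 6.03% of all tested genes. The 7 genes were chosen with earlier results of these data known, so setting this count beside that share is not a test. DESeq2 gave 0 adjusted and 1 unadjusted among the 7, and called 83 of all 11095 genes after adjustment. The share of all genes with an unadjusted DESeq2 p-value below 0.05 was not counted. The unadjusted edgeR count of the 7 fell to 1 without WT replicate 2 or 3 and without il26KO replicate 1 or 2. Both genes were higher in il26KO, a direction in which 3.52% of all tested genes had such a p-value. They were the paralogs nfkbiaa and nfkbiab, which encode IκBα. The other 5 genes differed by less than 2 standard errors. The median log2 fold change of the 7 genes was -0.08, against 0.01 over all tested genes. In pooled tissue, fewer cells of a type and less RNA per cell cannot be told apart.

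The inhibitors were examined first, and the IκBα paralogs among them had the widest differences of the 7 genes. nfkbiab was counted at 60.9, 68.8 and 63.1 CPM in WT replicates 1, 2 and 3. It was counted at 87.9, 73.2 and 79.8 CPM in il26KO replicates 1, 2 and 3. Every il26KO library lay above every WT library, with il26KO replicate 1 the highest of all and a gap of only a few CPM between the closest libraries of the genotypes. WT libraries averaged 64.3 ± 4.04 CPM and il26KO libraries 80.3 ± 7.35 CPM (SD, n = 3 each), a 1.25-fold difference with a 95% interval of 1.08 to 1.45. On the log2 scale this was 0.32 ± 0.093 (SE), at an unadjusted edgeR p-value of 0.00849 and an adjusted one of 0.518. It ranked at place 182 by p-value among the genes tested, so the difference did not pass the test across all genes.

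nfkbiaa, the second IκBα paralog, was counted at 42.7, 36.4 and 40.9 CPM in WT replicates 1, 2 and 3. In il26KO replicates 1, 2 and 3 it was counted at 54.7, 45.8 and 43.4 CPM. The genotypes again did not overlap, but il26KO replicate 3 lay less than 1 CPM above WT replicate 1, while il26KO replicate 1 stood well above the rest. WT averaged 40.0 ± 3.23 CPM and il26KO 47.9 ± 5.98 CPM (SD, n = 3 each), a 1.2-fold difference with a 95% interval of 1.01 to 1.43. The log2 fold change of 0.26 ± 0.11 (SE) had an unadjusted edgeR p-value of 0.0413 and an adjusted one of 0.808. This p-value depended on the test, being 0.0649 in DESeq2 and 0.0538 in the likelihood ratio test of edgeR. In the quasi-likelihood test it rose above 0.05 without WT replicate 2 or 3 and without il26KO replicate 1 or 2. Without il26KO replicate 1 the log2 fold change of nfkbiaa was 0.14 ± 0.096 (SE; unadjusted edgeR p-value of 0.191), and without WT replicate 2 it was 0.20 (unadjusted p-value of 0.141). The nfkbiab value was 0.24 ± 0.092 (SE; unadjusted edgeR p-value of 0.0376) without il26KO replicate 1. Reads shared between the paralogs may have been assigned to either gene, since the counting was not stated.

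nfkbie encodes IκBε, another inhibitor of the family. It was counted at 53.9, 45.3 and 44.9 CPM in WT replicates 1, 2 and 3. The il26KO libraries had 48.0, 46.0 and 42.1 CPM in the same order. The genotypes overlapped, and WT replicate 1 was the highest library. The log2 fold change of nfkbie was -0.08 ± 0.097 (SE), with a 95% interval of -0.31 to 0.14 and an adjusted edgeR p-value of 0.932. It was -0.003 without WT replicate 1. The fourth inhibitor of the family, nfkbib (IκBβ), which was taken from the wider pathway list, had 47.4, 44.2 and 48.0 CPM in WT and 42.6, 44.9 and 47.2 CPM in il26KO. Its log2 fold change was -0.05 ± 0.075 (SE, edgeR adjusted p = 0.949), with a 95% interval of -0.22 to 0.12. This interval overlapped those of nfkbiaa (0.01 to 0.51) and nfkbiab (0.11 to 0.53). Whether the fold changes of different inhibitors differed from each other was not tested.

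**Figure D1:**
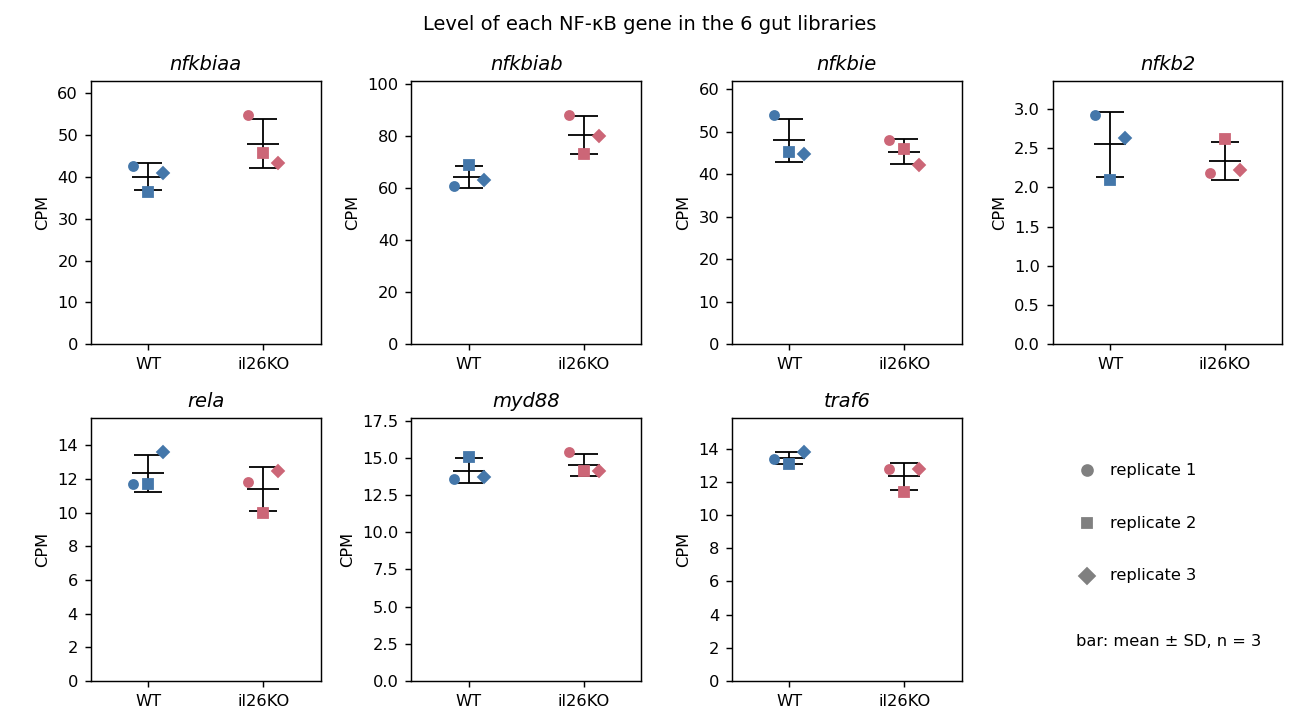
Expression (CPM, linear axis from 0) of the 7 NF-κB genes in each of 3 WT and 3 il26KO libraries; symbols are replicates and bars the mean ± SD. The il26KO points of nfkbiaa and nfkbiab lie above all WT points, those of traf6 lie below, and the groups overlap for the remaining 4 genes.

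The factors themselves were examined next. rela encodes p65, the main activating subunit. It was counted at 11.7, 11.7 and 13.6 CPM in WT replicates 1, 2 and 3 and at 11.8, 9.97 and 12.5 CPM in il26KO replicates 1, 2 and 3. The genotypes overlapped, with the lowest value in il26KO replicate 2, the shallowest library. For rela the log2 fold change was -0.11 ± 0.12 (SE), with a 95% interval of -0.37 to 0.16 (edgeR adjusted p = 0.926). nfkb2 encodes p100, the precursor of p52 in the non-canonical branch of the pathway. It was the least abundant of the 7 genes in counts, with 41 to 72 counts per library. Its levels were 2.92, 2.10 and 2.63 CPM in WT and 2.18, 2.62 and 2.22 CPM in il26KO replicates 1, 2 and 3. The groups overlapped fully, and the variation within WT was the widest of the 7 genes, at 16.4% of the mean. The log2 fold change of nfkb2 was -0.13 ± 0.18 (SE; edgeR adjusted p = 0.948), and the 95% interval of -0.56 to 0.29 still allowed a fall to 0.681-fold or a rise to 1.22-fold. For rel, a further factor of the family on the wider list, the log2 fold change was 0.09 ± 0.12 (SE; edgeR adjusted p = 0.946), and the genotypes overlapped (5.16 to 5.72 CPM in WT, 5.47 to 6.36 CPM in il26KO). Its sign was negative (-0.002) without il26KO replicate 1.

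The adaptors stood upstream of these genes. myd88 links Toll-like and interleukin-1 receptors to the pathway. It was counted at 13.6, 15.1 and 13.7 CPM in WT replicates 1, 2 and 3 and at 15.4, 14.1 and 14.1 CPM in il26KO replicates 1, 2 and 3. The genotypes overlapped in a narrow range. For myd88 the log2 fold change was 0.04 ± 0.089 (SE; edgeR adjusted p = 0.974), with a 95% interval of -0.17 to 0.24, which is a fold of 0.891 to 1.18. The sign was negative without WT replicate 1 (-0.002) or without il26KO replicate 1 (-0.023), so no direction can be given.

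traf6, the ubiquitin ligase that acts after Myd88, was the steadiest of the 7 genes in WT, where replicates 1, 2 and 3 had 13.4, 13.1 and 13.8 CPM. In il26KO replicates 1, 2 and 3 it had 12.8, 11.4 and 12.8 CPM. All 3 il26KO libraries lay below all WT libraries, by less than 1 CPM at the closest. This was a log2 fold change of -0.12 ± 0.087 (SE), a 95% interval of -0.32 to 0.08, and p-values of 0.196 before and 0.901 after adjustment in the edgeR test. A gene can therefore have genotypes that do not overlap and still miss the unadjusted threshold. Of all tested genes, 4.91% had every il26KO library below every WT library, and 5.94% had every il26KO library above. Among the 7 genes these counts were 1 and 2.

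**Figure D2:**
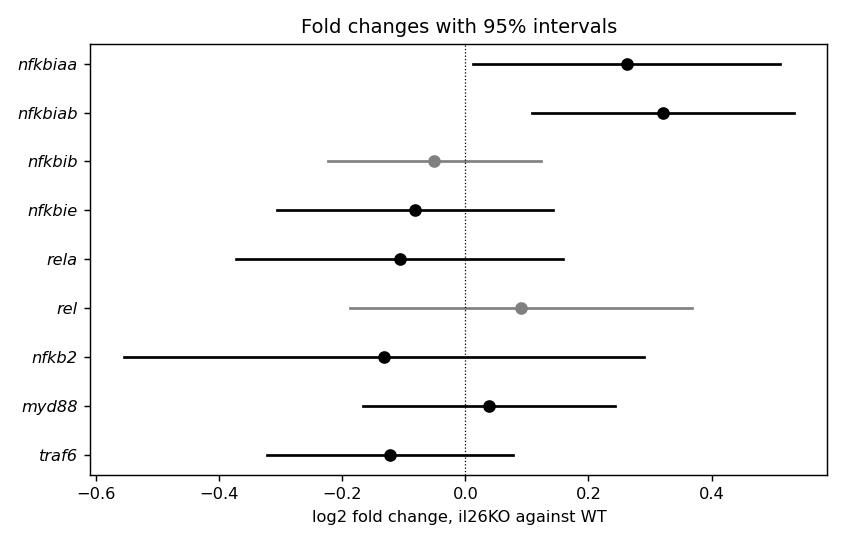
Log2 fold changes of il26KO against WT (horizontal axis) with 95% intervals for the 7 genes in black and for rel and nfkbib of the wider list in grey. The intervals of nfkbiaa (0.01 to 0.51) and nfkbiab (0.11 to 0.53) lie above 0, and the other intervals include 0.

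The balance between inhibitor and factor was also read within each library, because a ratio of counts between genes of the same library does not depend on the scaling between libraries. Gene length enters such a ratio, so its absolute size has no meaning here and only its difference between libraries is given. The ratio of nfkbiab to rela counts was 5.19, 5.85 and 4.65 in WT replicates 1, 2 and 3. In il26KO replicates 1, 2 and 3 it was 7.47, 7.34 and 6.37. All il26KO ratios were higher than all WT ratios. The ratio of nfkbiaa to rela counts was 3.63, 3.10 and 3.01 in WT and 4.65, 4.59 and 3.46 in il26KO replicates 1, 2 and 3. Here il26KO replicate 3 fell within the WT range. The ratio of nfkbie to rela counts was 4.59, 3.86 and 3.30 in WT and 4.08, 4.61 and 3.37 in il26KO, and that of nfkbib to rela was 3.54 to 4.04 in WT and 3.63 to 4.51 in il26KO. The genotypes overlapped in both. The ratio of nfkbiaa to nfkbiab was 0.529 to 0.700 in WT and 0.544 to 0.625 in il26KO, so the genotypes overlapped. The ratios of nfkbiaa and of nfkbiab to nfkbie and to nfkbib were each higher in all il26KO libraries than in all WT libraries. The gap was narrow for nfkbiaa to nfkbib, at 0.900 or less in WT and 0.919 or more in il26KO. The ratio of traf6 to myd88 overlapped. How often ratios of other gene pairs separate the genotypes was not counted. These pairs were chosen after the counts had been seen, and no test was made of them. Because nfkbiaa and nfkbiab already separated the genotypes in CPM, their ratios partly restate those values and are not separate evidence.

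**Figure D3:**
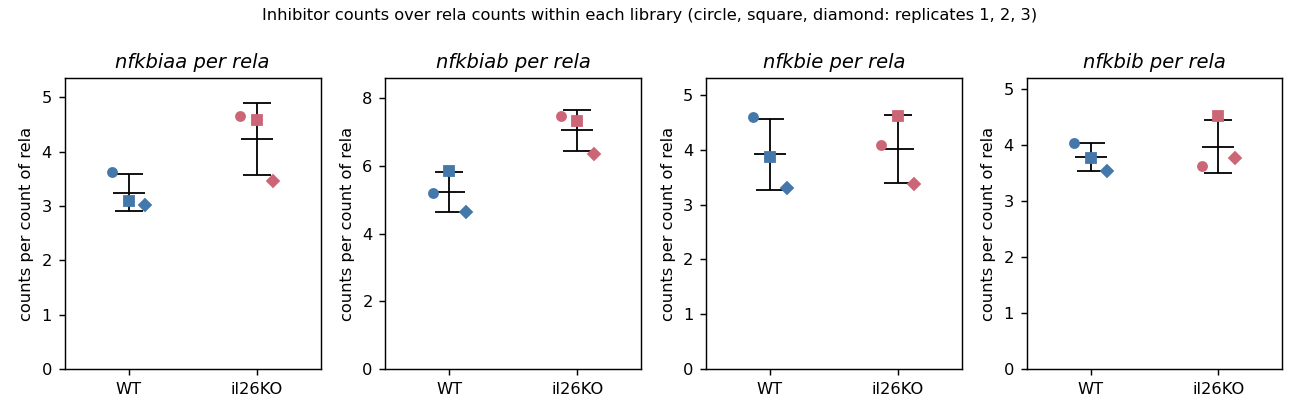
Counts of each inhibitor gene divided by the counts of rela in the same library (vertical axis, no unit), for 3 WT and 3 il26KO libraries; bars show the mean ± SD. The nfkbiab ratio is 6.37 or more in il26KO and 5.85 or less in WT, while the nfkbie and nfkbib ratios overlap.

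The dependence of each value on single libraries was then described. When each of the 6 libraries was left out in turn, nfkbiab stayed at log2 fold changes of 0.24 to 0.37 and nfkbiaa at 0.14 to 0.33. The lowest value of both came without il26KO replicate 1. The range was -0.14 to -0.003 for nfkbie, -0.26 to -0.03 for nfkb2, -0.18 to -0.03 for rela and -0.16 to -0.09 for traf6. Of the 7 genes, only myd88 changed sign. The adjusted edgeR p-value stayed at 0.453 or above in every one of these fits for all 7 genes, and an unadjusted p-value below 0.05 was kept in all 6 fits by nfkbiab only.

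**Figure D4:**
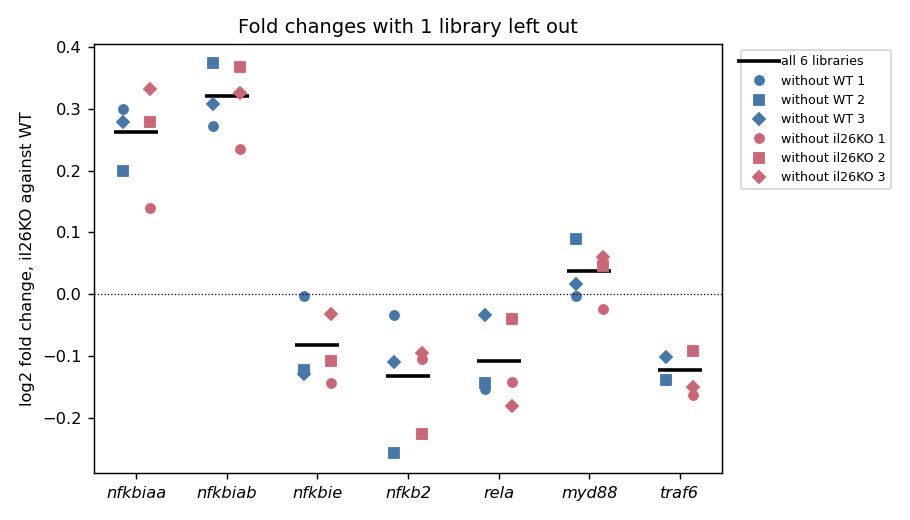
Log2 fold change of il26KO against WT (vertical axis) for the 7 genes in fits that each left out 1 library (symbols) and in the fit of all 6 libraries (black bars). The nfkbiab symbols stay between 0.24 and 0.37, those of nfkbiaa drop to 0.14 without il26KO replicate 1, and those of myd88 cross 0.

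The wider pathway was read from a list of 111 further genes sorted by role, of which 76 were matched and 57 passed the filter on low counts. None of the 57 passed an adjusted edgeR p-value of 0.05. Before adjustment 4 of the 57 had a p-value below 0.05 (7.02%, against 6.03% of all tested genes), and DESeq2 gave 0 adjusted and 3 unadjusted. The 3 were irf1b, pdlim2 and cfb, the last of which was not among the 4. The share of all genes with such a p-value in DESeq2 was not counted. The unadjusted edgeR count fell to 1 without WT replicate 2 and to 2 without il26KO replicate 3. All 4 edgeR genes were lower in il26KO, a direction in which 2.51% of all tested genes had such a p-value. The median log2 fold change of the 57 genes was -0.02, against 0.01 over all tested genes.

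Few ligands and receptors of the pathway were well covered. Of the 27 on the list, 18 were matched and 8 tested, and 0 of the 8 had an unadjusted edgeR p-value below 0.05. The cytokine gene tnfa had 5, 4 and 4 counts in WT replicates 1, 2 and 3 and 0, 3 and 1 in il26KO. The cytokine gene il1b had 4, 8 and 9 counts in WT and 5, 5 and 16 in il26KO. In CPM, which allows for library depth, the genotypes overlapped for both genes. For tnfa the range was 0.147 to 0.203 CPM in WT and 0 to 0.192 CPM in il26KO. The counts of tnfa lay close to the detection floor of 3 counts, and those of il1b reached 16 in il26KO replicate 3. Neither gene passed the count filter, so neither was tested. The tested Toll-like receptor genes were tlr5b, the flagellin receptor, tlr18 and tlr22, with log2 fold changes of -0.05, 0.10 and -0.05 (edgeR adjusted p-values of 0.974, 0.966 and 0.986). The smallest p-values of the role belonged to il1rapl1a (log2 fold change -0.62 ± 0.33, SE; edgeR adjusted p = 0.873), a member of the interleukin-1 receptor family, to the TNF receptor gene tnfrsf1b (0.21 ± 0.15; adjusted p = 0.901) and to cd40 (-0.12 ± 0.15; adjusted p = 0.932). The genotypes overlapped in all of these tested receptor genes, and single libraries moved the last named values. They ran from -0.96 (without il26KO replicate 1, unadjusted edgeR p-value of 0.0269) to -0.38 (without il26KO replicate 2) for il1rapl1a, from 0.10 (without il26KO replicate 1) to 0.29 (without il26KO replicate 2) for tnfrsf1b, and from -0.26 (without WT replicate 2) to -0.02 (without WT replicate 3) for cd40. Whether il1rapl1a acts in the NF-κB pathway was not examined.

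Among adaptors and kinases, 17 of 30 genes were tested. The subunits of the IκB kinase differed little. Their log2 fold changes were 0.02 for chuk, 0.06 for ikbkb and -0.01 for ikbkg, with edgeR adjusted p-values of 0.985, 0.948 and 0.993. Of this role, 2 genes had an unadjusted edgeR p-value below 0.05 (11.8%, against 6.03% of all tested genes). ticam1, the adaptor of the Myd88-independent Toll-like receptor branch, averaged 18.7 ± 1.16 CPM across WT libraries and 15.6 ± 1.88 CPM across il26KO libraries (SD, n = 3 each). The lowest WT library had 17.7 CPM and the highest il26KO library 17.2 CPM, so the genotypes did not overlap. Its log2 fold change was -0.26 ± 0.11 (SE; edgeR p-value of 0.0422 unadjusted and 0.811 adjusted). sarm1, an adaptor related to Myd88 and in mammals an inhibitor of that branch, had 26 to 34 counts in WT and 14 to 21 counts in il26KO libraries. Its log2 fold change was -0.58 ± 0.25 (SE; edgeR p-value of 0.0487 unadjusted and 0.826 adjusted). The third smallest p-value of the role was that of traf3, an inhibitor of the non-canonical branch, at 0.18 ± 0.14 on the log2 scale (SE; edgeR adjusted p = 0.901). It was 0.11 without il26KO replicate 3. The values of ticam1 and sarm1 kept their sign when any library was left out, but their unadjusted p-values rose above 0.05 in DESeq2 (0.0642 and 0.141). In the quasi-likelihood test that of ticam1 rose above 0.05 without WT replicate 1 or 2 and without il26KO replicate 1 or 3. When 1 library was left out, that of sarm1 stayed below 0.05 only without il26KO replicate 2. With the replicate block the quasi-likelihood p-value of sarm1 was 0.0743.

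Among the remaining regulators, pdlim2, which in mammals directs p65 to degradation, was counted at 125, 111 and 102 CPM in WT and at 101, 93.9 and 91.7 CPM in il26KO replicates 1, 2 and 3. Its log2 fold change was -0.24 ± 0.094 (SE; edgeR p-value of 0.0335 unadjusted and 0.782 adjusted), with WT replicate 3 and il26KO replicate 1 almost at the same level. The unadjusted p-value of pdlim2 was 0.0356 in DESeq2 and 0.0645 in the likelihood ratio test of edgeR. In the quasi-likelihood test it rose above 0.05 without WT replicate 1 or 2 and without il26KO replicate 2 or 3. The log2 fold change was -0.175 without WT replicate 1 and -0.308 without WT replicate 3. The IκB-interacting Ras-like genes nkiras1 and nkiras2 had log2 fold changes of -0.13 and 0.08 (edgeR adjusted p-values of 0.905 and 0.923), which moved to -0.08 without il26KO replicate 3 and to 0.03 without il26KO replicate 1. Of the 11 ubiquitin editing and feedback genes tested, 0 had an unadjusted p-value below 0.05, and their log2 fold changes lay between -0.21 and 0.12. The smallest p-values there were those of n4bp1 (-0.21 ± 0.13, SE; adjusted p = 0.892), tax1bp1a (0.12 ± 0.081; adjusted p = 0.901) and itcha (-0.09 ± 0.076; adjusted p = 0.912) in the edgeR test. Without il26KO replicate 3, n4bp1 was at -0.37 (unadjusted edgeR p-value of 0.0122) and itcha at -0.15, and without il26KO replicate 1 n4bp1 was at -0.13. The value of tax1bp1a was 0.06 without il26KO replicate 2. The gene tnfaip3, which encodes the ubiquitin editor A20, was not part of this group. 

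Targets of the pathway were the last group, with 15 of 27 genes tested. irf1b, a gene of the interferon regulatory factor family whose mammalian counterpart responds to interferon and NF-κB, was the lowest in p-value of the whole pathway list. It was counted at 7.43, 6.85 and 7.77 CPM in WT replicates 1, 2 and 3 and at 4.81, 4.41 and 5.08 CPM in il26KO replicates 1, 2 and 3. The genotypes were clearly apart, and the spread within each was small. WT averaged 7.35 ± 0.466 CPM of irf1b and il26KO 4.77 ± 0.336 CPM (SD, n = 3 each). This was -0.62 ± 0.12 (SE) as a log2 fold change. The edgeR quasi-likelihood p-value was 0.000739 unadjusted and 0.186 adjusted, and ranked at place 44. The likelihood ratio test of edgeR was the only alternative that called it (adjusted p = 0.0119); adjusted p-values over the other alternatives ran from 0.0651 to 0.525.

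No other target had an unadjusted edgeR p-value below 0.05. The complement gene cfb was at -0.62 ± 0.31 on the log2 scale (SE; edgeR adjusted p = 0.873) with overlapping genotypes, since WT replicate 1 had 2.64 CPM and the other WT libraries 5.77 CPM or more. Without WT replicate 1 it was -0.93 (unadjusted edgeR p-value of 0.00115), without WT replicate 2 -0.40, and DESeq2 gave an unadjusted p-value of 0.0472. WT replicate 1 also had the lowest sum of liver markers, 3340 CPM, whose part in the value of cfb was not tested. lyz, the lysozyme gene and a neutrophil marker, had -0.51 ± 0.33 (SE; edgeR adjusted p = 0.892), and moved to -0.27 without WT replicate 1 and -0.72 without WT replicate 2. The chemokine gene cxcl8b.1 had a log2 fold change of 0.04 (adjusted p = 0.986), the matrix protease gene mmp9 0.38 (adjusted p = 0.906) and the superoxide dismutase gene sod2 -0.13 (adjusted p = 0.904) in the edgeR test. Of the 15 tested targets, 1 had an unadjusted edgeR p-value below 0.05 (6.67%, against 6.03% of all tested genes). A positive log2 fold change was found for 3 of the 15 and a negative one for 12, with a median of -0.12. Some of the negative values were close to 0, such as -0.003 for bcl2l1 and -0.06 for tnfaip2a. The highest positive value was 0.64 ± 0.63 (SE; edgeR adjusted p = 0.922) for nos2a, which had 54 counts over all 6 libraries and overlapping genotypes. The signs were not tested. Over all tested genes 5907 had a positive and 5188 a negative log2 fold change.

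**Figure D5:**
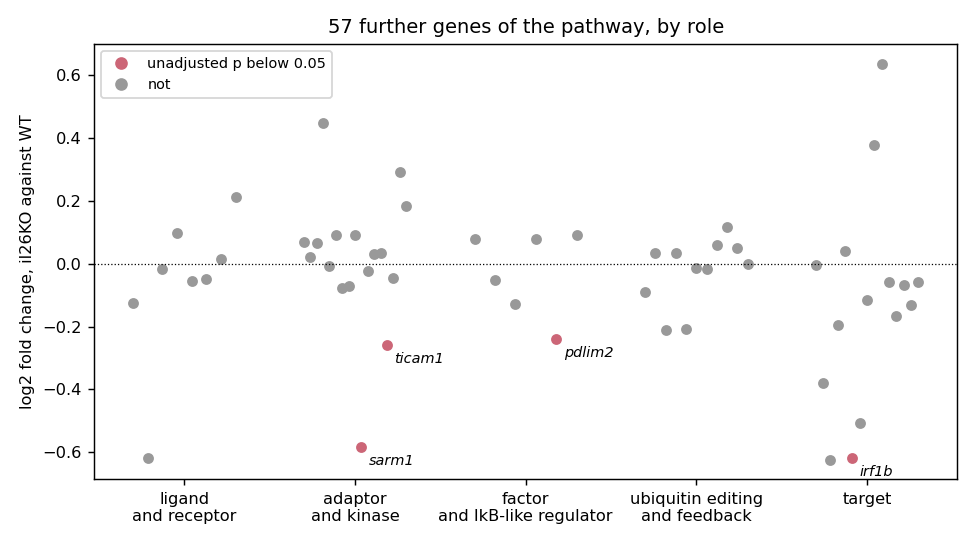
Log2 fold changes of il26KO against WT (vertical axis) for 57 further genes of the pathway, grouped by role; red points have an unadjusted edgeR p-value below 0.05 and are named. The 4 red points, ticam1, sarm1, pdlim2 and irf1b, all lie below 0 and none passed adjustment over all genes.

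Other cell types and handling were set beside these values. Immediate early genes, which respond quickly to stress and handling, summed to 270 to 348 CPM in WT and 236 to 370 CPM in il26KO. Of the 12 tested, 0 passed adjustment. The sum of 370 CPM was that of il26KO replicate 1, which was also the highest library for nfkbiaa and nfkbiab. The sum of 236 CPM was that of il26KO replicate 2, where nfkbiaa (45.8 CPM) and nfkbiab (73.2 CPM) were above every WT library. The sum of 348 CPM was that of WT replicate 2. That library had the lowest nfkbiaa of all (36.4 CPM) and the highest nfkbiab of WT (68.8 CPM). The list was led by dusp1, at a mean of 176 CPM, so the sums follow that gene most. What part the immediate early response had in the values of nfkbiaa and nfkbiab was not tested. Neutrophil, macrophage, lymphoid, endothelial and enteric neuron sums overlapped between genotypes, as did those of intestinal epithelium, acinar pancreas, liver and skeletal muscle. Erythroid markers, led by hbbe1.1, summed to 25.8 to 47.6 CPM in WT and 15.5 to 25.8 CPM in il26KO, and were apart by less than 0.1 CPM. Single markers with an unadjusted edgeR p-value below 0.05 were hbbe1.1 (log2 fold change -0.95, p-value of 0.0167), the acinar gene ptf1a (-0.58, p-value of 0.0145) and egr2a (-0.80, p-value of 0.0231), all lower in il26KO. Their part in the values of nfkbiaa, nfkbiab and irf1b was not tested. In a RefSeq table of the GRCz12tu assembly, 0 of the 7 genes lay on the chromosome of il26. None could therefore be among the 100 tested genes nearest to il26, which were taken from that chromosome. The place of irf1b was not looked at.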

How the data were processed

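The authors aligned stranded, poly(A)-selected paired-end reads of 100 bp to danRer11 and deposited raw counts per gene symbol, without normalization. The aligner, counting tool, annotation and strand setting are not given in the sources used here. Groups and replicate numbers came from sample titles, and columns from library names (0 columns unmatched).

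Counts were fitted with edgeR 4.0.16 in R 4.3.3: filterByExpr on genotype (minimum count 10, minimum total 15), TMM scaling, genotype as the only factor, two-sided quasi-likelihood test, and Benjamini-Hochberg adjustment over all 11095 genes tested. SE was the log2 fold change over the square root of F. Intervals are 95% and unadjusted for multiple testing. The fit was run on simulated counts with planted changes larger than those of nfkbiaa and nfkbiab. Whether it finds differences of their size was not tested. Nothing in the labels says that pools came from separate clutches, so p-values measure the spread between these libraries.

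Alternatives were other size factors (RLE), filters, DESeq2 1.42.0, the likelihood ratio test, a replicate block, a prior count of 0.5 in place of 2 for log2 CPM, and leaving out libraries. The genes and lists were chosen with earlier results of these data known. Named from the pathway list were tnfa, il1b, rel, nfkbib and the 3 genes of smallest p-value in each role. The genes tlr5b, tlr18, tlr22, chuk, ikbkb, ikbkg, cxcl8b.1, mmp9, sod2, bcl2l1, tnfaip2a and nos2a were added after their values were seen, as were the ratios.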

Additional observations from a re-analysis of the deposited data

How the results depend on the processing

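None of the 7 genes was called under any alternative that was run, and only myd88 changed direction (-0.002 without WT replicate 1 and -0.023 without il26KO replicate 1; range when 1 library was left out -0.023 to 0.09). On the wider list rel also changed sign (-0.002 without il26KO replicate 1; range -0.002 to 0.132). The count of the 7 with an unadjusted p-value below 0.05 was 2 under RLE factors, both filters and the block, 1 by DESeq2, 1 by the likelihood ratio test, and 1 to 2 when 1 library was left out. On the wider list the likelihood ratio test called 1 gene, irf1b (-0.61, adjusted p = 0.0119), and gave 2 with an unadjusted p-value below 0.05. Leaving out 1 library gave 1 to 4 unadjusted on this list. The share of all genes with an unadjusted p-value below 0.05 was not counted under the alternatives. Over all genes, 12 were called, against 83 by DESeq2, 93 by the likelihood ratio test, 2 with the replicate block, and 3 to 8 when 1 library was left out. The cause was not tested.

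The labels do not say whether same-numbered libraries were collected together. Correlations of their deviations from the group means were -0.226, -0.0426 and 0.114. Taken from means of 3 libraries, these values cannot settle whether a batch was shared. With the replicate block the log2 fold change was 0.32 for nfkbiab (unadjusted edgeR p-value of 0.0251) and 0.26 for nfkbiaa (unadjusted edgeR p-value of 0.0277). The prior count moved no mean log2 CPM of the 7 genes by more than the SD of WT. Low counts kept tnfa, il1b and most matched Toll-like receptor genes out of the tests; whether depth, annotation or counting set those counts was not tested. With 3 libraries per genotype, changes as small as that of nfkbiaa are imprecise.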

Other observations

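Receptor genes of the pathway that passed the count filter included the cytosolic sensor gene nod2 (6.12 CPM in WT and 6.02 CPM in il26KO, means of 3 libraries) and tnfrsf1a (27.9 and 28.1 CPM). Several cytokine and receptor genes were at or near the floor: il6 had 1 count over all 6 libraries, tlr21 1 and tlr9 10, and tlr3 and tlr4bb had 0. The acute target genes csf3a and csf3b had 8 and 5 counts over all 6 libraries. These genes were chosen after their values were seen. In the edgeR test the log2 fold change was -0.02 for nod2 and 0.01 for tnfrsf1a (adjusted p = 0.992 and 0.991), and the genes near the floor were not tested.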
